A study of Mus musculus with 11 samples.

Results

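Genes of the 8 solute carrier families that move amino acids and peptides across membranes (Slc1, Slc3, Slc6, Slc7, Slc15, Slc36, Slc38 and Slc43) were compared in the colon of germ-free and humanized mice. Their names matched 71 of the 43346 genes in the count table, and the 53 genes with at least 10 reads in at least 5 of the 11 mice were taken. At the edge of this rule, Slc38a3 was included with 5 such mice and Slc1a7 was left out with 4. Of the 53 genes, 52 passed the low-expression filter and were tested. The exception was Slc38a3, with 3 to 24 reads in germ-free mice and 0 to 10 in humanized mice. One tested gene, Slc7a6os, takes its name from its place beside Slc7a6 and does not belong to a carrier family.

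RNA came from colonic tissue of male Swiss Webster mice, with 1 library per mouse. The 5 germ-free mice had no microbiota. The 6 humanized mice were raised germ-free and received 300 μL of stool suspension from 1 healthy human donor by gavage at 4 to 5 weeks of age, followed by 4 to 5 weeks of adaptation. All mice were studied at 8 to 10 weeks, housed singly in isolators and fed the same autoclaved diet, and the use of 1 donor means that effects of the donor and of colonization cannot be told apart.

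Absorptive epithelial cells carry amino acids from the lumen to the blood across an apical and a basolateral membrane. On the apical brush border, sodium- or proton-coupled carriers draw in free amino acids, dipeptides and tripeptides from the lumen, and exchangers and facilitated carriers pass them on at the basolateral side. Some Slc7 carriers work as heteromers, in which an Slc7 light chain does the transport and an Slc3 heavy chain brings it to the membrane. Other family members serve neurons and glia, where they clear transmitters such as GABA, glycine and monoamines, or sit in lysosomes.

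Between 49097005 and 64148538 reads per germ-free mouse and between 39125290 and 54219854 per humanized mouse were counted on genes, and the tested carrier genes took from 0.252% to 0.310% of them. Levels are TMM-normalized RPKM (reads scaled to library size and to the deposited coding length), and LFC is the log2-fold change of humanized over germ-free mice. Each of 11 markers of gut epithelium had reads in every mouse, and their summed RPKM was 3741 to 5192 in germ-free and 4307 to 5912 in humanized mice. At FDR below 0.01, 2 of them were higher in humanized mice (Elf3, LFC 0.45, and Krt18, LFC 0.48) and none was lower, with a median LFC of 0.21. Of 10 smooth muscle markers, 10 were lower in humanized mice at FDR below 0.01, with summed RPKM from 403 up to 1155 (germ-free) and from 48 up to 402 (humanized). Of 9 markers of enteric neurons and glia, 7 were lower, with summed RPKM from 8.97 up to 12.5 (germ-free) and from 1.63 up to 4.40 (humanized). In bulk tissue, fewer cells of a type and less RNA per cell cannot be told apart. The epithelial markers do not set colon apart from other gut, and the labels do not say which segment was taken. Of the distal position markers, Hoxb13 and Hoxd13 had 10 and 28 reads over all mice, and Hoxa13 had an LFC of −1.63 (FDR = 0.0190).

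Slc6a14, the most abundant of them, nearly doubled in humanized mice, while 10 other genes were lower, among them the peptide carrier Slc15a1 and 8 genes of low abundance. Of the 52 tested genes, 2 were higher and 10 were lower in humanized mice at FDR below 0.01 in edgeR's exact test, or 3.85% and 19.2%. Over all tested genes, these shares were 9.20% and 10.1%. With an absolute LFC above 0.58 as well, 1 gene was higher and 9 were lower, where 3.72% and 8.27% of all tested genes were. With total counts in place of TMM, 1 gene was higher and 18 were lower (3.89% and 18.2% of all tested genes), and the median LFC of all tested genes shifted by −0.19. The remaining 40 genes were not below the threshold, and 30 of the 52 (57.7%) had an unadjusted p below 0.05, against 37.4% of all tested genes.

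The median LFC was −0.26 for the 52 genes and 0.01 for all 19863 tested genes. An LFC below 0 was seen for 36 of the 52 genes and for 48.8% of all tested genes. Germ-free and humanized ranges were separate for 8 of the lower genes, or 15.4%, against 9.73% of all tested genes, and for 1 higher gene, or 1.92%, against 8.67%. The calls also differed with abundance. Of the 19 genes with a mean RPKM under 1, 8 (42.1%) were lower and none was higher, and their median LFC was −0.83. Of these 19, 5 met the read rule through the germ-free mice, 2 of the 8 lower genes among them, so the rule itself leans these values towards lower. Of the 33 genes at an RPKM of 1 or more, 2 were lower and 2 were higher (6.06% each), with a median LFC of −0.08. Over all tested genes under an RPKM of 1, 17.8% were lower and 2.44% were higher, with a median LFC of −0.29. Over those at 1 or more, 7.34% were lower and 11.6% were higher, with a median LFC of 0.05. No set of these genes was tested as a whole.

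**Figure D1:**
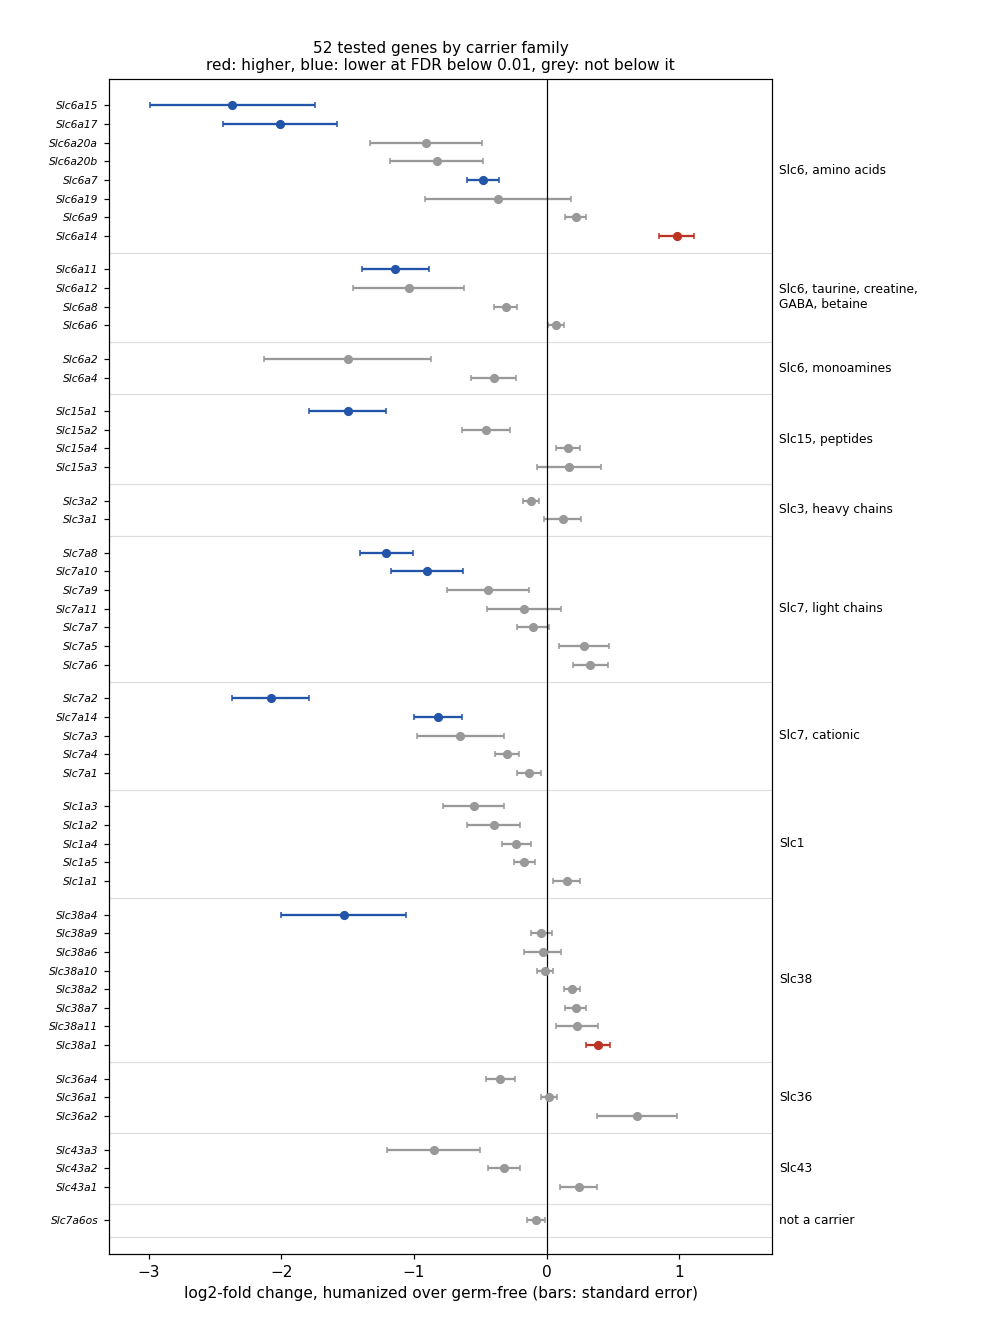
LFC of the 52 tested genes (x axis, humanized over germ-free, with standard errors from the quasi-likelihood fit), grouped by carrier family. At FDR below 0.01, 2 genes are higher (red) and 10 are lower (blue) in humanized mice, and the other 40 are grey.

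**Figure D2:**
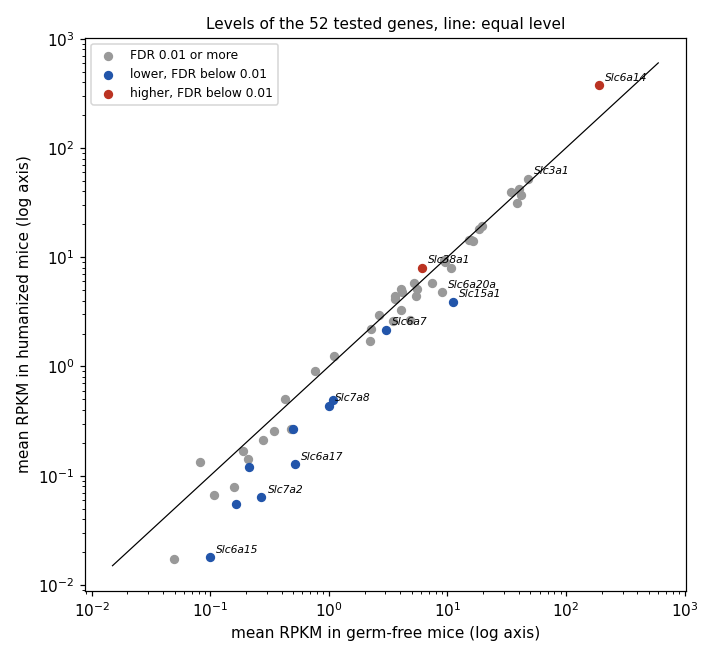
Mean RPKM of each of the 52 tested genes in germ-free (x axis, n = 5) and humanized mice (y axis, n = 6), both on log axes. Slc6a14 lies far above the other genes on both axes, and 8 of the 10 blue points are genes with a mean RPKM under 1.

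Slc6a14 encodes ATB0,+, a carrier of the apical membrane that uses the sodium and chloride gradients to take up neutral and cationic amino acids. It lies on chromosome X from 21714896 to 21742355. Its RPKM was 158.5, 202, 178, 221 and 192 in the 5 germ-free mice, and in humanized mice it ranged from 290.5 to 491 with a median of 374. Every humanized mouse was above every germ-free mouse. The means were 190.0 ± 23.5 (SD, n = 5) and 375 ± 67.6 (SD, n = 6), a 1.97-fold difference (LFC 0.98, standard error 0.13, FDR = 1.92e-11; exact permutation test, two-sided p = 0.00433, the smallest p that this design allows). Scaling the libraries to total counts gave an LFC of 0.79 and scaling to 11 epithelial markers gave 0.78.

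By mean RPKM, Slc6a14 ranked 209th of all tested genes in germ-free mice and 110th in humanized mice. Its mean level was 3.97 times that of the next carrier in germ-free mice and 7.23 times in humanized mice, Slc3a1 in both. Slc6a14 made up 31.5% ± 2.23 (SD, n = 5) of the summed RPKM of the 52 genes in the germ-free group and 49.0% ± 4.26 (SD, n = 6) in the humanized group. The lowest and highest shares were 28.9% and 34.9% (germ-free) and 43.6% and 55.2% (humanized). The summed RPKM of the other 51 genes was 413 ± 17.4 (SD, n = 5) and 387 ± 20.5 (SD, n = 6), and these sums overlapped between the groups.

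**Figure D3:**
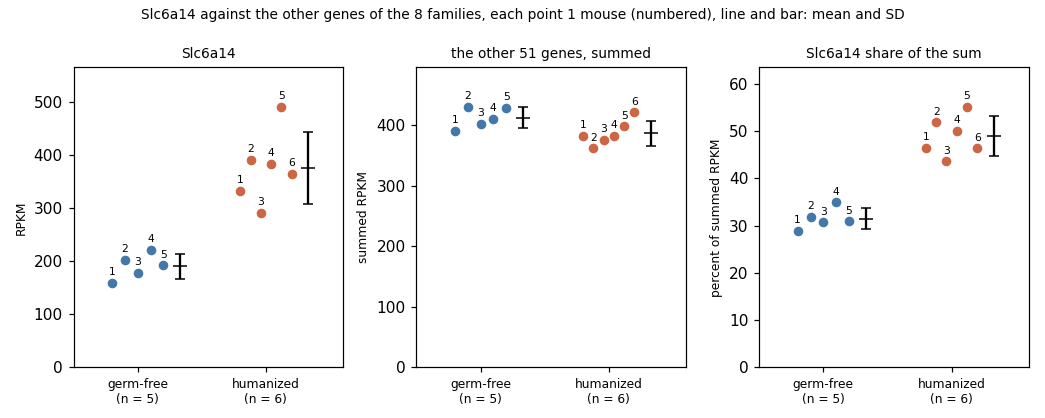
RPKM of Slc6a14 (left), summed RPKM of the other 51 tested genes (middle) and the percent of the whole sum that Slc6a14 makes up (right), with 1 numbered point per mouse and the mean and SD of each group. Slc6a14 and its share separate the groups, with shares of at most 34.9% in germ-free and at least 43.6% in humanized mice, and the sum of the other genes does not.

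The proximal promoters of Slc6a14, Slc15a1 and Slc6a20a are shown because the results for the brush border turn on these carriers: the first was higher, the second was lower, and the third depended on 1 mouse. Each sequence runs from 250 bases before to 50 bases after the transcription start, 5′ to 3′ on the strand of the gene, from RefSeq on GRCm38.p6. Capitals mark a match to the CCAAT box (CCAAT, or ATTGG on the other strand) or to the half-site GTTAAT that HNF1 factors bind.
Slc6a14, chrX:21714650-21714949, plus strand: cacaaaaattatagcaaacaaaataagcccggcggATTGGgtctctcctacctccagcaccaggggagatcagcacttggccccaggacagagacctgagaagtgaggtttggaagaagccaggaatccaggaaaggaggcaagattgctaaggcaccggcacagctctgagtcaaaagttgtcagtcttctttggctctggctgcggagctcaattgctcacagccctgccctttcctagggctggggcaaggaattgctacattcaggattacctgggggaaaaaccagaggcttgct
Slc15a1, chr14:121505205-121505504, minus strand: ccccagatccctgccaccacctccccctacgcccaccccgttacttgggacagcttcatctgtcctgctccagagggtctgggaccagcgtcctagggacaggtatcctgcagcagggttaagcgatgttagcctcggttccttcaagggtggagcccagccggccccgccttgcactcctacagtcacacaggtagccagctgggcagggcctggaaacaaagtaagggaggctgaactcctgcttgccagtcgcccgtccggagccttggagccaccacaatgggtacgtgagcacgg
Slc6a20a, chr9:123678783-123679082, minus strand: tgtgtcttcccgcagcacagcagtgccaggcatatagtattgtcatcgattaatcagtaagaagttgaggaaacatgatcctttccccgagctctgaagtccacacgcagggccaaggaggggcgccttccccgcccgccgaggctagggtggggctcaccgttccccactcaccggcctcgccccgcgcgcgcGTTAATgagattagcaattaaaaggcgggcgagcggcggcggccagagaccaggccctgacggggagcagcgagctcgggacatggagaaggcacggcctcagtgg
The letters of CCAAT were found 215 bases before the start of Slc6a14 and those of GTTAAT 56 bases before the start of Slc6a20a, and Slc15a1 held neither. RefSeq promoters matched 38 of the 53 genes, with 55 promoters in all. On either strand, CCAAT was in 25.5% of these and 37.4% of all 32851 promoters, and GTTAAT in 7.27% and 7.10%. The CDX-type site TTTATG was in none of the 55 and in 11.9% of all promoters, TATAAA was in 9.09% and 13.6%, and the ATF4-type element TGATGNAA was in 7.27% and 3.97%. The letters of TTTATG and of TATAAA read on the other strand are the same up to the last one. These counts describe the letters of the windows only.

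Among the other brush-border carriers, Slc15a1 fell in humanized mice. It encodes PepT1, which brings in dipeptides and tripeptides with protons, and lies on chromosome 14 from 121459621 to 121505254. Its RPKM was 7.14, 12.1, 9.12, 14.2 and 12.9 in germ-free mice and ranged from 2.40 to 7.91 in humanized mice, with a median of 3.24. Only humanized mouse 6, at 7.91, reached into the germ-free range, and the next highest humanized mouse had 3.91. The means were 11.1 ± 2.89 (SD, n = 5) and 3.91 ± 2.05 (SD, n = 6), with an LFC of −1.50 (standard error 0.29, FDR = 8.85e-06; exact permutation test, two-sided p = 0.00866). Without humanized mouse 6, the LFC was −1.84.

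Slc6a19 encodes B0AT1, the main sodium-coupled carrier of neutral amino acids in the intestine, and Slc6a20a encodes SIT1, a carrier of proline. Slc6a19 had 2.22 ± 0.701 RPKM (SD, n = 5) in germ-free and 1.72 ± 2.03 RPKM (SD, n = 6) in humanized mice, with an LFC of −0.37 (standard error 0.55, FDR = 0.674). Its humanized values had a median of 0.825, and humanized mouse 6 stood apart at 5.80, above every germ-free mouse. For Slc6a20a, the means were 8.97 ± 1.47 (SD, n = 5) and 4.78 ± 3.59 (SD, n = 6), with an LFC of −0.91 (standard error 0.42, FDR = 0.0957), and humanized mouse 6 again was highest at 11.4. Both calls depended on this mouse. Without it, Slc6a19 had an LFC of −1.30 (FDR = 2.96e-04), Slc6a20a an LFC of −1.38 (FDR = 5.01e-04) and its neighbour Slc6a20b, at −0.83 with all mice (FDR = 0.0746), an LFC of −1.16 (FDR = 0.00252). Reads of Slc6a20a and Slc6a20b may be uncertain, since the sharing of reads between these paralogs was not checked, and 14.3% and 21.1% of their exonic bases overlap genes of the opposite strand.

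Slc7a9 and Slc3a1 encode the light and the heavy chain of the brush-border exchanger of cystine and cationic amino acids. Slc7a9 had 10.8 ± 2.89 RPKM (SD, n = 5) in germ-free and 7.96 ± 3.66 RPKM (SD, n = 6) in humanized mice, and the difference was within the spread between mice (LFC −0.44, standard error 0.31, FDR = 0.311). Slc3a1 was the second most abundant gene of the set. Its RPKM was 31.2, 47.9, 48.1, 53.0 and 58.9 in germ-free mice and 45.8 to 66.9 in humanized mice, with a median of 49.97. The groups overlapped almost entirely (LFC 0.12, standard error 0.14, FDR = 0.625). The humanized maximum of both genes was in mouse 6, at 13.5 and 66.9 RPKM. For Slc3a1, 26.5% of the exonic bases also belong to Prepl on the opposite strand, so reads of these 2 genes cannot be fully separated in libraries that do not mark strand.

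Humanized mouse 6 was the highest of the humanized mice for 15 of the 52 genes and the lowest for 10, and mice 4 and 3 were the highest for 11 and 10. Besides the brush-border carriers named above, the 15 included Slc7a7, Slc43a2, the serotonin carrier Slc6a4 and the low-abundance genes Slc6a15, Slc6a17, Slc7a14, Slc38a4 and Slc6a2. Mouse 6 also had the highest humanized value for 8 of 10 tested partners and peptidases, all but Mep1a and Lap3. Anpep, an aminopeptidase, had 79.8 RPKM in this mouse and 2.43 to 7.01 RPKM in the other humanized mice. Enpep, another aminopeptidase, had 42.7 RPKM against at most 8.15 in the others. This mouse also had the highest summed smooth muscle and epithelial markers of the humanized mice, at 402 and 5912 RPKM. The part of tissue make-up or colon segment in these values was not tested.

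**Figure D4:**
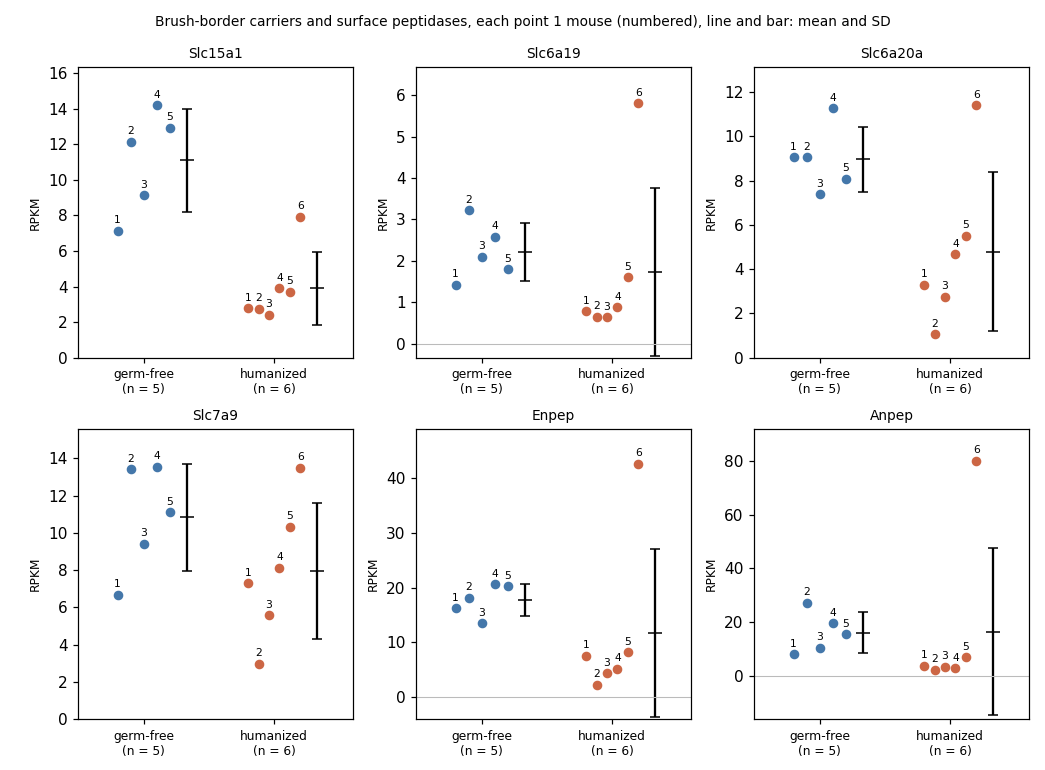
RPKM (y axis) of 4 brush-border carriers and of the surface peptidases Enpep and Anpep, with 1 numbered point per mouse and the mean and SD of each group. Humanized mouse 6 has the highest humanized value in all 6 panels, at 7.91 for Slc15a1, 5.80 for Slc6a19 and 79.8 for Anpep.

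The largest decreases were in genes of low abundance. Slc6a15 and Slc6a17 encode carriers of neutral amino acids known mainly from neurons. Slc6a15, on chromosome 10 from 103367808 to 103419378, had 0.1001, 0.0682, 0.117, 0.0747 and 0.134 RPKM in the germ-free group, with 13 to 34 reads per mouse, and 0 to 0.0603 RPKM with a median of 0.00953 in humanized mice. No humanized mouse reached the germ-free range, and 2 had no reads. At least 10 reads were found in 5 germ-free mice and 1 humanized mouse. Slc6a15 thus met the read rule mainly through the germ-free group, which leans its values towards lower. The LFC was −2.37 (standard error 0.62, FDR = 3.01e-04), and the quasi-likelihood test gave FDR = 0.0143. Without humanized mouse 6, which held 11 of its humanized reads, the LFC was −3.33. Slc6a17, on chromosome 3 from 107467543 to 107518018, had 0.407, 0.349, 0.562, 0.801 and 0.458 RPKM in germ-free mice and 0.0205 to 0.227 RPKM with a median of 0.137 in humanized mice. Its groups did not overlap either (LFC −2.01, standard error 0.43, FDR = 7.90e-05).

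Slc7a2 encodes CAT2, a carrier of arginine and other cationic amino acids, and lies on chromosome 8 from 40862396 to 40922308. Its RPKM was 0.290, 0.255, 0.273, 0.295 and 0.237 in germ-free mice and 0.0277 to 0.111 with a median of 0.0680 in humanized mice. The germ-free values were close together and every humanized mouse lay below them, at 4.22-fold lower expression on average (LFC −2.08, standard error 0.29, FDR = 4.73e-10). Slc7a14, which encodes a relative of CAT2, had 0.229, 0.249, 0.230, 0.187 and 0.165 RPKM in germ-free mice and 0.0985 to 0.160 RPKM with a median of 0.108 in humanized mice. The groups were separate by a narrow margin (LFC −0.82, standard error 0.18, FDR = 9.01e-04). The other genes of this group, Slc7a1, Slc7a3 and Slc7a4, had LFC values of −0.13, −0.65 and −0.30 and were not below an FDR of 0.01, though Slc7a4 was with DESeq2 and with total counts.

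Slc6a11 encodes the GABA carrier GAT3. Its RPKM was 1.02, 0.940, 1.28, 1.11 and 1.12 in germ-free mice and 0.223 to 0.716 with a median of 0.506 in humanized mice. The groups did not overlap (LFC −1.14, standard error 0.25, FDR = 2.72e-04). Slc6a12, the carrier of betaine and GABA, had an LFC of −1.04 that was not below the threshold (FDR = 0.0550). Slc6a7, a carrier of proline known from brain, was more abundant, at 3.02 ± 0.448 RPKM (SD, n = 5) in germ-free and 2.16 ± 0.264 RPKM (SD, n = 6) in humanized mice. With an LFC of −0.48 (standard error 0.12, FDR = 0.00818), the lowest germ-free mouse had 2.46 and the highest humanized mouse 2.45 RPKM, and the call held in 4 of 11 fits that each left out 1 mouse (germ-free mouse 5 or humanized mouse 3, 4 or 6). It also held in 5 of 8 other alternatives, DESeq2 among them (FDR = 0.001147), and the quasi-likelihood test gave FDR = 0.01195.

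Among the light chains of the heteromeric carriers, 2 of 7 genes were lower and none was higher, where 10.1% of all tested genes were lower and 9.20% higher. Slc7a8 encodes LAT2, an exchanger of neutral amino acids of the basolateral membrane. It had 0.908, 0.820, 0.924, 1.43 and 0.933 RPKM in germ-free mice and 0.282 to 0.561 RPKM with a median of 0.422 in humanized mice. Every humanized mouse was below every germ-free mouse (LFC −1.21, standard error 0.20, FDR = 2.70e-06). Slc7a10, which encodes a carrier of small neutral amino acids such as serine, had 0.515, 0.365, 0.507, 0.644 and 0.476 RPKM in germ-free mice and 0.0940 to 0.334 RPKM with a median of 0.294 in humanized mice. The groups did not overlap (LFC −0.90, standard error 0.27, FDR = 0.00955), but the call held in 2 of 11 fits that left out 1 mouse (germ-free mouse 2 or humanized mouse 5). It also held in 3 of 8 other alternatives, with FDR = 0.0283 in the quasi-likelihood test and FDR = 0.0105 in DESeq2. Of the exonic bases of Slc7a10, 17.9% overlap Lrp3 on the opposite strand.

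Slc7a5, Slc7a6 and Slc7a7, which encode the light chains LAT1, y+LAT2 and y+LAT1, had LFC values of 0.28, 0.33 and −0.10 with FDR of 0.322, 0.0833 and 0.640. Slc7a11, the light chain of the cystine and glutamate exchanger, was scarce in both groups (LFC −0.17, FDR = 0.729). Their shared heavy chain Slc3a2 had 15.7 ± 0.743 RPKM (SD, n = 5) in germ-free and 14.4 ± 1.202 RPKM (SD, n = 6) in humanized mice. These values overlapped between the groups (LFC −0.12, standard error 0.06, FDR = 0.261).

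**Figure D5:**
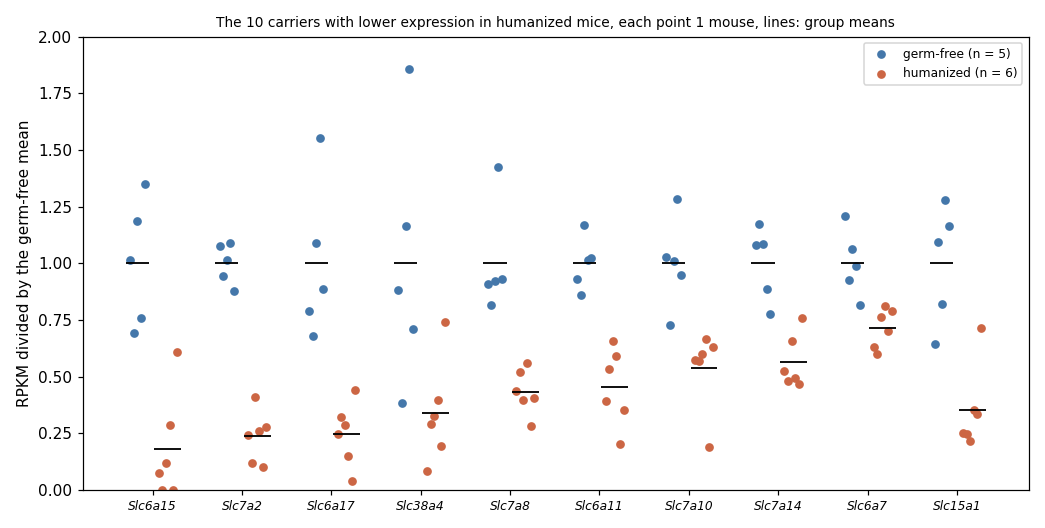
RPKM divided by the germ-free mean (y axis) for the 10 genes that were lower at FDR below 0.01, with 1 point per mouse and lines at the group means. Slc38a4 and Slc15a1 are the 2 genes whose groups overlap, and the other 8 are separate.

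Markers of other cell types were set beside the lower genes of low abundance. Of the markers of enteric neurons and glia, Elavl4 had an LFC of −2.44, Sox10 of −2.33 and S100b of −1.75, and no marker of that list was at 0 reads in any mouse. Snap25 (LFC −0.52, FDR = 0.0283) and Gfap (LFC −1.28, FDR = 0.0178) of that list were not below the threshold. Fibroblast markers were lower for 5 of 7 genes, and endothelial markers for 0 of 6 with a median LFC of −0.95. Markers of enteroendocrine cells (3 of 5 higher), leukocytes (2 of 8 higher) and plasma cells (5 of 5 higher) went the other way, with none lower. Slc6a4, the serotonin carrier, had 3.45 ± 0.220 RPKM (SD, n = 5) in germ-free and 2.61 ± 0.798 RPKM (SD, n = 6) in humanized mice (LFC −0.40, FDR = 0.0974). Without humanized mouse 6, its LFC was −0.57 (FDR = 8.12e-04), and it was also below the threshold with total counts and with scaling to epithelial markers. Epithelial scaling in place of TMM gave 12 lower genes, Slc6a15, Slc6a17, Slc7a2, Slc7a8, Slc6a11 and Slc7a14 among them, where 11.4% of all tested genes were lower and the median LFC over all 19863 moved by −0.20. Slc7a10 was not below the threshold there (FDR = 0.01007). The part of other cell types in the decreases was not tested.

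The sodium-coupled Slc38 carriers held the second gene with higher expression. Slc38a1 encodes SNAT1, a carrier of glutamine and other neutral amino acids, and had 6.12 ± 0.756 RPKM (SD, n = 5) in germ-free and 8.01 ± 0.826 RPKM (SD, n = 6) in humanized mice. The groups overlapped through humanized mouse 6 at 6.62 and germ-free mouse 2 at 7.23 (LFC 0.39, standard error 0.09, FDR = 0.00132). With libraries scaled to total counts or to epithelial markers, its LFC was 0.20 and not below the threshold (FDR = 0.176 and 0.377), and without germ-free mouse 3 it was 0.33 (FDR = 0.0104). Slc38a2, which encodes SNAT2 and lies near Slc38a1 on chromosome 15, had 33.6, 36.1, 34.1, 34.7 and 34.4 RPKM in germ-free mice and 35.1 to 44.3 RPKM with a median of 39.3 in humanized mice. Its difference was small and not below an FDR of 0.01 (LFC 0.19, standard error 0.06, FDR = 0.0378).

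The third gene of this stretch, Slc38a4, was lower at 0.145, 0.0629, 0.190, 0.304 and 0.116 RPKM in germ-free mice and 0.0138 to 0.121 RPKM with a median of 0.0505 in humanized mice. With at least 10 reads in 5 germ-free and 3 humanized mice, it met the read rule mainly through the germ-free group. It encodes SNAT4, its groups overlapped (LFC −1.53, standard error 0.47, FDR = 0.00860), and its call held in 2 of 11 fits that left out 1 mouse (germ-free mouse 2 or humanized mouse 6). The call also held in 3 of 7 other alternatives, with FDR = 0.0302 in the quasi-likelihood test and FDR = 0.0154 in DESeq2. Of the other Slc38 genes tested, Slc38a6, Slc38a7, Slc38a9, Slc38a10 and Slc38a11 had LFC values from −0.04 to 0.23. Slc38a9, which serves the sensing of arginine at the lysosome, had 2.25 ± 0.169 RPKM (SD, n = 5) and 2.19 ± 0.174 RPKM (SD, n = 6).

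Most abundant carriers were not below the threshold. Of the 11 genes with a mean RPKM above 10, Slc6a14 was the only one below an FDR of 0.01, where 24.7% of all tested genes above that level were, and the other 10 had LFC values between −0.31 and 0.19 with standard errors of at most 0.14. With total counts, 4 of these 10 were lower, namely Slc1a4, Slc1a5, Slc3a2 and Slc6a8, where 18.2% of all tested genes were lower and the median LFC of the whole table moved by −0.19. Slc6a6 encodes the taurine carrier, and its RPKM was 41.2, 41.0, 40.2, 37.9 and 39.0 in germ-free mice and 37.6 to 46.5 with a median of 42.3 in humanized mice. The groups overlapped (LFC 0.07, standard error 0.06, FDR = 0.547). Slc1a5, which encodes the glutamine exchanger ASCT2, had 43.9, 45.8, 39.6, 38.6 and 39.2 RPKM in germ-free mice and 31.3 to 41.2 RPKM with a median of 37.1 in humanized mice. It overlapped as well (LFC −0.17, standard error 0.08, FDR = 0.157), and it was below the threshold at an LFC of −0.36 with total-count scaling. The creatine carrier Slc6a8 had 38.4 ± 3.22 RPKM (SD, n = 5) and 31.0 ± 4.26 RPKM (SD, n = 6), with an LFC of −0.31 (FDR = 0.0149), and it was below the threshold without humanized mouse 6 (LFC −0.34, FDR = 0.00847) or mouse 5, and with total counts, scaling to epithelial markers or a minimum of 10 reads in every mouse.

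None of the 11 tested genes of the Slc1, Slc36 and Slc43 families was below an FDR of 0.01, against 19.3% of all tested genes. The Slc1 genes, which encode carriers of glutamate and of small neutral amino acids, had LFC values from −0.55 for the glial glutamate carrier Slc1a3 to 0.15 for Slc1a1. Of the proton-coupled Slc36 carriers, Slc36a1 had 9.31 ± 0.643 RPKM (SD, n = 5) and 9.45 ± 0.553 RPKM (SD, n = 6), with an LFC of 0.02. Slc36a2 had an LFC of 0.68 (FDR = 0.0980) and Slc36a4 of −0.35 (FDR = 0.0204), and Slc36a4 was below the threshold with total counts and without humanized mouse 2 or 3. The Slc43 genes had LFC values of −0.85, −0.32 and 0.24 for Slc43a3, Slc43a2 and Slc43a1, and Slc43a2 was below the threshold without humanized mouse 6 (LFC −0.43, FDR = 1.17e-04), with total counts and with scaling to epithelial markers. Besides Slc15a1, the peptide carriers Slc15a2, Slc15a3 and Slc15a4 had LFC values of −0.46, 0.17 and 0.16. The noradrenaline carrier Slc6a2 had few reads, with an LFC of −1.50 (FDR = 0.0497).

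Spread between mice was larger in humanized mice for 40 of the 52 genes. The median coefficient of variation of RPKM was 13.8% in germ-free and 19.7% in humanized mice, and over all tested genes it was 10.4% and 16.5%. At least 10 reads in every germ-free mouse but not in every humanized mouse were found for 5 genes, namely Slc6a2, Slc6a12, Slc6a15, Slc38a4 and Slc7a3. These met the read rule mainly through the germ-free group, and Slc6a15 and Slc38a4 of them were lower at FDR below 0.01.

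Other genes of amino acid handling were compared as lists, beside the 9.20% of all tested genes that were higher and the 10.1% that were lower. Of 10 tested partners of the carriers and peptidases, 3 were higher and 4 were lower. Dpp4, which cuts dipeptides from the ends of peptides, had 16.3 ± 2.32 RPKM (SD, n = 5) in germ-free and 8.95 ± 2.44 RPKM (SD, n = 6) in humanized mice. Its groups did not overlap (LFC −0.87, standard error 0.16, FDR = 5.77e-06). Mep1a (LFC −0.64, FDR = 0.00113), Pepd (LFC −0.44, FDR = 0.00399) and Cndp2 (LFC −0.68, FDR = 9.35e-05) were lower as well. Ggt1, which splits the γ-glutamyl bond of glutathione, rose (LFC 1.55, standard error 0.37, FDR = 3.74e-04), as did Lap3 and Mep1b. Anpep, Enpep and Ace were not below the threshold. For Anpep and Enpep this rested on humanized mouse 6: the germ-free mice had 8.17 to 27.2 RPKM of Anpep and 13.5 to 20.6 RPKM of Enpep, above all other humanized mice. Without mouse 6, both were lower (LFC −2.03, FDR = 3.21e-07, and LFC −1.71, FDR = 7.91e-08), and 6 of the 10 genes were lower in place of 4. Tmem27, a partner of B0AT1 in the kidney, had 12 reads over all mice.

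Of 12 tested amino acid carriers from other families, 2 were higher and 2 were lower. Slc16a10, which encodes the carrier of aromatic amino acids TAT1, had 4.24 ± 0.346 RPKM (SD, n = 5) in germ-free and 2.72 ± 0.566 RPKM (SD, n = 6) in humanized mice (LFC −0.64, FDR = 1.41e-04), and Slc25a29 was lower too. The mitochondrial carriers Slc25a13 and Slc25a22 were higher, at LFC values of 0.30 and 0.32, and Slc25a13 had FDR = 0.0105 without humanized mouse 6. Of 17 genes that respond to amino acid shortage, 3 were higher and none was lower. These were Phgdh of serine synthesis (LFC 1.33, FDR = 8.30e-04), Chac1, which degrades glutathione (LFC 1.18, FDR = 0.00423), and asparagine synthetase Asns (LFC 0.54, FDR = 0.00755), while Atf4, the transcription factor of this response, had an LFC of −0.11. Without humanized mouse 6, Phgdh alone of the 17 was below the threshold, with Chac1 at FDR = 0.0153 and Asns at FDR = 0.0130. Of 19 genes of amino acid sensing by mTORC1, 2 were higher and 3 were lower. The higher genes were Lamtor2 and Lamtor5 (LFC 0.32 and 0.27), and Lamtor5 had FDR = 0.0120 without humanized mouse 6. Gatsl2 was lower (LFC −0.50, FDR = 8.24e-07), as were 2 scarce Rag GTPase genes. Rragd, with a germ-free mean of 0.757 RPKM, had an LFC of −1.56 (FDR = 1.64e-09) and Rragb, at 0.512 RPKM, of −1.38. The abundant Rraga and Rragc, with germ-free means of 24.4 and 23.6 RPKM, had LFC values of 0.17 and −0.01.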

How the data were processed

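Colonic RNA of 11 male mice (5 germ-free, 6 humanized) was sequenced. Per the labels and methods, 101 bp paired-end reads were aligned to mm10 by the authors (TopHat2 version 2.1.0, which calls Bowtie2 version 2.2.3), and featureCounts of Subread (1.4.6-p5) gave the deposited raw counts of 43346 genes. The library kit does not mark strand. How the deposited coding length was computed was not stated in the sources used here. Of the 53 genes, 16 share exonic bases with a gene of the opposite strand in GENCODE M21 on GRCm38, the build of the counts.

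In R 4.3.3, filterByExpr with default settings (10 reads, 15 reads in total, large group size 10, proportion 0.7) kept 19863 genes. TMM, estimateDisp and the exact test of edgeR 4.0.16 with Benjamini–Hochberg correction at FDR below 0.01 follow the methods of the study, and adjusted values cover all tested genes. Standard errors come from edgeR's quasi-likelihood fit. Single genes were also compared by exact permutation of group labels on log2 CPM (prior count 2). DESeq2 1.42.0 was an alternative. The tests were checked on simulated counts with changes of 2-fold and the same spread for every gene in both groups. Genes of very few reads, such as Slc6a15, were not simulated, so that check does not cover them. P-values set the difference between the groups against the spread between mice, and do not cover what all mice of a group share, such as the donor. Alternatives covered the test, normalization, filter, threshold, each mouse left out and a replicate block.

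The genes and lists were chosen with earlier results of these data known. All tested carrier genes at FDR below 0.01 are named, and those with an absolute LFC above 0.58 and the 5 most abundant carrier genes are given with each germ-free value and the lowest, median and highest humanized value. Humanized mouse 6 was singled out, and Slc6a19, Slc6a20a and Slc7a9 were described in full, after their values were seen. No library was left out of the main comparison. Markers of leukocytes (2 of 8 higher, none lower) and plasma cells (5 of 5 higher) were also listed. No batch is named in the labels. Proteins and reads were not analysed here. Some genes of the comparison lists are not reported here and were left out of the list counts and sums.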

Additional observations from a re-analysis of the deposited data

Results flagged for a closer look

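Within each group, the RPKM of the highest or lowest mouse was compared with the others for each tested gene. Of 104 groups examined, 9 held a mouse whose gap to its nearest neighbour, divided by the range, passed Dixon's 95% limit. Chance flags about 1 in 20 groups.

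Humanized mouse 6 held 4 of the 9. It was highest for Slc6a19 at 5.80 RPKM, where the next humanized mouse had 1.602, for Slc15a1 at 7.91 against 3.91, and for Slc3a1 at 66.9 against 52.5, and it was lowest for Slc38a11 at 0.356 against 0.506. Humanized mouse 5 was lowest for Slc7a10 at 0.0940 RPKM against 0.284, and humanized mouse 4 was highest for Slc7a4 at 5.35 against 4.43. In germ-free mice, mouse 2 was highest for Slc7a1 at 6.97 RPKM against 5.46, mouse 4 was highest for Slc7a8 at 1.43 against 0.933, and mouse 1 was lowest for Slc1a1 at 2.19 against 2.71.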

How the results depend on the processing

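The count of higher genes was 2, where 9.20% of all tested genes were higher. It fell to 1 with total-count normalization (3.89% of all tested genes), scaling to epithelial markers (2.77%), an absolute LFC above 0.58 (3.72%) and the replicate block (2.55%). The count of lower genes was 10 and moved to 6 with the quasi-likelihood test, to 18 with total counts and to 4 with the replicate block. The share of all tested genes that were lower moved with it, from 10.1% to 6.53%, 18.2% and 2.55%. Lower genes whose groups did not overlap numbered 8, and 13 with total counts, where 17.7% of all tested genes were of this kind against 9.73%. With each mouse left out in turn, higher genes numbered 1 to 2 (6.69% to 10.6% of all tested genes) and lower genes 7 to 15 (7.45% to 11.8%). Genes without overlap numbered 1 to 4 higher (8.85% to 11.8% of all tested genes) and 8 to 13 lower (10.2% to 12.8%). The 15 were reached without humanized mouse 6, when Slc6a19, Slc6a20a, Slc6a20b, Slc6a4, Slc6a8 and Slc43a2 were added and Slc7a10 was lost, with 9.39% of all tested genes lower. Without that mouse, 13 lower genes and 2 higher genes had no overlap (10.8% and 9.11% of all tested genes). The 4 higher genes without overlap were reached without germ-free mouse 2 (9.96% of all tested genes), and 2 without humanized mouse 4 (9.59%). Slc36a4 was added to the lower calls without humanized mouse 2 or 3, and Slc6a12 and Slc7a4 without mouse 4. Higher genes numbered 1 without germ-free mouse 3, when Slc38a1 had FDR = 0.0104. The cause was not tested.

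The replicate numbers of the labels belong to different animals. Deviations of same-numbered mice correlated at −0.133 to 0.0910, and 1 of 5 germ-free mice correlated best with its own number. Humanized mouse 6 has no partner and adds nothing to the block. In that fit Slc6a14 was higher, and Slc15a1, Slc7a2, Slc7a8 and Slc6a4 were lower.

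For 19 named genes, no direction was reversed among called values. Leaving out 1 mouse left 181 of 209 results as they were, and the other alternatives 129 of 150. Genes of the 19 that were not called and stayed so count as unchanged in these totals. Calls were lost in 26 and gained in 2 of the 209, and lost in 20 and gained in 1 of the 150. Only the 12 called genes could lose a call. Slc6a14, Slc15a1, Slc7a2 and Slc7a8 passed in all 11 and all 8 of these fits. At few reads per mouse, counting error limits Slc6a15, Slc38a4 and Slc6a2.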
